A study of Rattus norvegicus with 72 samples.

Results

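Stac3 and Car3 are 2 of the 14506 rat genes measured in these livers, and they were chosen by their measured decrease in ethanol-fed livers before surgery. The levels before surgery, on which they were selected, are therefore given as a description, and so is every comparison of these genes that uses a control array. Only the remnants are tested. Stac3 is read by probe set 10895915 and Car3 by probe set 10822242, the only probe set that the array annotation gives to each of these genes alone. Levels are log2 intensities from Affymetrix Rat Gene 1.0 ST arrays after the authors' RMA and batch correction, so a difference of 1 is a doubling of signal.

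STAC3 is an adaptor protein of skeletal muscle, where it ties the voltage-sensing calcium channel of the cell surface to the calcium release channel of the sarcoplasmic reticulum. CAR3 is a cytosolic carbonic anhydrase with weak carbon dioxide hydration activity. It is abundant in liver, slow muscle and fat, and in rat liver it is known as a male-predominant gene that depends on the pattern of growth hormone secretion. Cutting away part of the liver, partial hepatectomy, sets off regrowth of the remnant.

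The series holds 72 arrays from 36 rats on 3 diets: chronic ethanol (EtOH), high fat (HF) and carbohydrate (CHO). Each rat gave a piece of liver taken at partial hepatectomy, the control array, and a piece of the remnant 1, 6 or 24 h later. Every animal was operated on, and no sham-operated group is among the samples. Neither the rats' strain, sex and age, nor what the diets contained, how long they were fed and the hour of operation, are given in the labels. The titles and diet labels define the groups. The source names exchange high fat and carbohydrate; were they the correct ones, the HF and CHO groups below would trade names throughout.

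After removal of the 9 arrays marked as outliers and of 2 CHO control arrays in doubt, 12 EtOH, 9 HF and 8 CHO control arrays and 32 remnant arrays were compared. Medians over all 29214 probe sets lay between 4.54 and 4.77 per array. The array median that genes are set against below is that of the 14506 genes, which is higher. The median of the gene means was 5.32. The 8 hepatocyte markers, among them Alb and Apob, averaged 12.53 in EtOH, 12.48 in HF and 12.50 in CHO control livers, and 0 of 8 were called between EtOH and either diet at any stage in limma (0 or 1 with an unadjusted p under 0.05 per comparison). The 12 measured skeletal muscle markers averaged 4.30, 4.28 and 4.25 in the same order of diets, and 10 of them lay below the array median. The 8 adipocyte markers averaged 5.01 in EtOH, 4.99 in HF and 5.00 in CHO control livers, and only 5 of them lay below the array median. Adipoq, their defining marker, averaged 3.45, 3.46 and 3.54.

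The promoter of Stac3 alone is shown and searched, because the promoter sequences used here hold none for Car3. RefSeq places the 250 bases before its start at chr7:65228225-65228474 on the plus strand of GRCr8, and the capitals mark the only match to the 6 motifs searched on both strands.

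Stac3: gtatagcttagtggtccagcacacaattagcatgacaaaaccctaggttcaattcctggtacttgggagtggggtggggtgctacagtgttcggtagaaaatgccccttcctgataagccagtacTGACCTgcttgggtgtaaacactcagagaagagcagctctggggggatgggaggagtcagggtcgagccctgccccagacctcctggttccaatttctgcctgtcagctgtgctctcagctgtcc

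The marked letters are AGGTCA, a nuclear receptor motif, read on the minus strand at position -125 from the start. The same 6 letters occur in 14.06% of the 33469 promoters of this length in the RefSeq table. TTCNNNGAA, the letters STAT factors bind, is not in this window and occurs in 7.667% of promoters. CACGTG, the E-box read by clock and carbohydrate-response factors, is likewise not in the window (5.593% of promoters), nor are TTATGTAA and TTATGCAA, the letters of the PAR bZIP family that includes Dbp (0.8276% and 0.7888%), nor TGCCAA (12.02%). A match describes letters only, and none of these was tested as a binding site.

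Before surgery Stac3 was low in EtOH livers, while its HF and CHO values overlapped. In EtOH livers it ran from 3.59 through a median of 4.30 to 6.11, in HF livers from 6.06 through 7.65 to 8.45, and in CHO livers from 8.12 through 8.62 to 9.24. The means were 4.57 ± 0.84 in EtOH, 7.62 ± 0.70 in HF and 8.69 ± 0.45 in CHO livers (SD, n = 12, 9 and 8). Every EtOH liver lay at least 2.01 below every CHO liver, while the highest EtOH liver overlapped the lowest HF liver by 0.04. Stac3 was below the median of the 14506 genes on its own array in 10 of the 12 EtOH livers. This held for 0 of 9 HF and 0 of 8 CHO livers. A level below that median is not shown to lie above background, because the tables used hold no detection calls.

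Car3 split the diets differently. It ran from 7.61 through 9.19 to 9.94 in EtOH livers, from 11.62 through 11.85 to 12.73 in HF livers and from 11.73 through 11.95 to 12.38 in CHO livers. Its means were 9.02 ± 0.70 in EtOH, 11.97 ± 0.41 in HF and 11.97 ± 0.21 in CHO livers (SD, n = 12, 9 and 8). The highest EtOH liver lay 1.68 below the lowest HF liver and 1.79 below the lowest CHO liver, and Car3 was above the array median in every liver.

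The arrays left out lay with their groups for both genes in most cases. The only EtOH array among them, the 24 h remnant of replicate 4, had Stac3 at 3.97 and Car3 at 8.68, and 1 of its labels gives the high-fat diet. The 3 HF control arrays had Stac3 at 9.29, 7.78 and 7.71 and Car3 at 12.29, 11.87 and 11.62. The 2 CHO control arrays in doubt, whose columns in another table of the authors match the remnants of the same animals, had Stac3 at 8.43 and 7.95 and Car3 at 12.38 and 11.89. The HF array at 9.29 was above every other HF liver, the others lay within or near the ranges of their diets, and with all arrays the EtOH minus CHO difference was -4.11 for Stac3 and -2.98 for Car3.

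**Figure D1:**
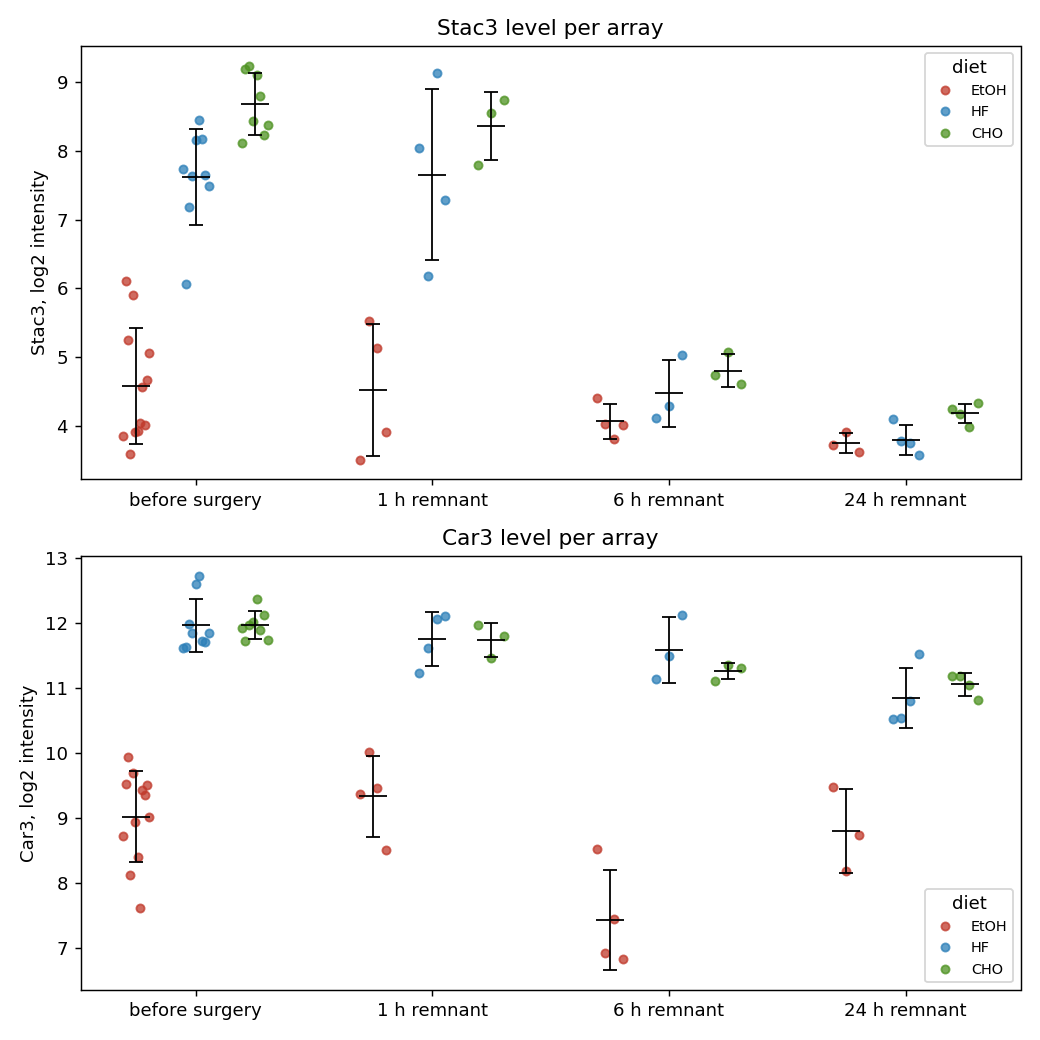
Log2 intensity of Stac3 (top) and Car3 (bottom) in every array compared, by stage and, left to right within a stage, EtOH, HF and CHO. Points are arrays, dashes are means and bars are 1 SD. All Stac3 values at 6 and 24 h lie between 3.57 and 5.07, while Car3 in EtOH livers stays below both other diets at every stage.

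The fitted EtOH minus CHO difference before surgery was -4.20 ± 0.35 for Stac3 (SE), 18.4-fold lower and the lowest of all genes. For Car3 it was -3.08 ± 0.25, 8.45-fold lower and the third lowest. Between them stood Dbp, a clock output transcription factor, at -3.56. Just above Car3 came Hsd17b2, which oxidises sex steroids, at -3.03, followed by Dhrs7l1, a short-chain dehydrogenase, at -2.82. Against HF the fitted differences were -3.07 ± 0.32 for Stac3 and -3.01 ± 0.23 for Car3, ranks 3 and 4 from the lowest. Dbp at -3.47 and Abcg5, a sterol exporter, at -3.12 lay lower, and Hsd17b2 at -2.96 lay just above. The pair were therefore not the outright lowest genes in both comparisons, and Car3 was set apart from Hsd17b2 by 0.05 in each. CHO replicate 4 of the 6 h cohort and EtOH replicate 3 of the 24 h cohort were the only kept controls of their scan days. With scan day as a block, they did not inform these fitted differences. Across all genes, 5.46% were called lower against CHO and 6.05% lower against HF at a limma adjusted p under 0.05, figures given only as background to the choice.

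The cohorts were the animals later sampled at 1, 6 and 24 h, and each was scanned on days of its own. The EtOH minus CHO difference of Stac3 means was -4.16, -4.34 and -3.73 in the cohorts of 1, 6 and 24 h. Against HF livers the cohort differences were -2.30, -3.64 and -3.19. For Car3 they were -2.80, -3.44 and -2.61 against CHO, and -2.67, -3.73 and -2.43 against HF. Both genes were lower in EtOH livers in all 3 cohorts, and for both the 6 h cohort had the largest difference.

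The spread among EtOH livers was wide for Stac3. Within the 6 h animals EtOH replicate 1 had 5.91, against 3.91, 3.92 and 4.03 in the other 3 livers. The EtOH livers of the 1 h animals had 3.84, 6.11, 5.25 and 3.59, and those of the 24 h animals 4.57, 4.01, 4.67 and 5.05. So 2 EtOH livers stood near 6 and the others lay between 3.59 and 5.25. One HF liver, replicate 2 of the 1 h cohort, was low at 6.06, against 7.74 and 7.19 in the other 2 of that cohort.

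Among EtOH livers before surgery, those with more Stac3 signal also had more Car3 signal. Over the 12 EtOH livers Pearson's r was 0.692 and Spearman's rho was 0.797, given as a description with no p because these are the arrays that chose the genes. Without the 2 livers farthest from the Stac3 median r was 0.689, and after removal of scan-day means it was 0.702. In the 9 HF livers r was 0.568 and rho 0.317, and without 2 livers r was 0.303. In the 8 CHO livers r was 0.0662 and rho -0.0952, and without 2 livers r was 0.5265. Whether the relation differs between diets was not tested.

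**Figure D2:**
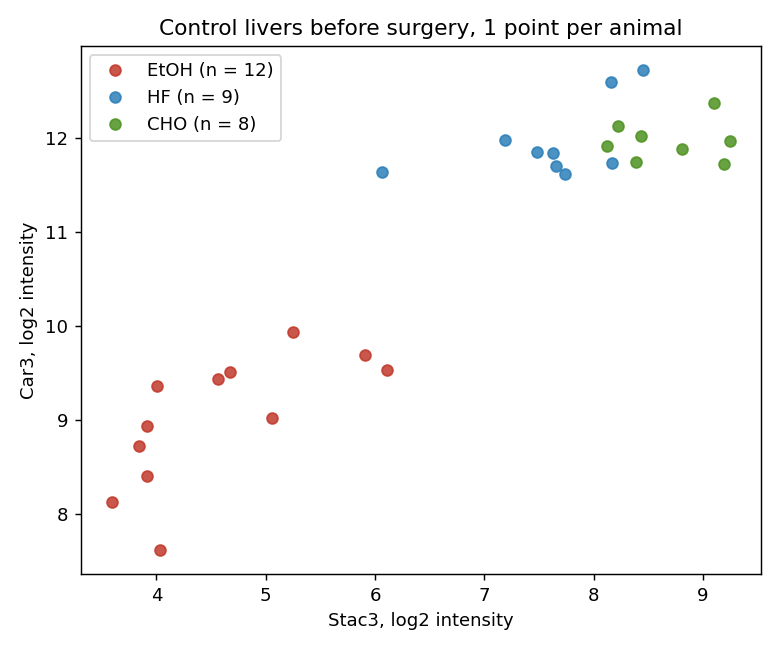
Stac3 (x) against Car3 (y), both in log2 intensity, in the control livers before surgery, with 1 point per animal. The 12 EtOH livers run from the lower left towards higher values of both genes, while HF and CHO livers share a band of Car3 between 11.62 and 12.73 and differ along the Stac3 axis.

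Between the control diets before surgery, Stac3 was 7.62 ± 0.70 in HF and 8.69 ± 0.45 in CHO livers, with a fitted difference of -1.13 ± 0.36 (SE). That was rank 3 from the lowest of all genes, so Stac3 was also low in HF against CHO livers. For Car3 the fitted difference was -0.07 ± 0.26. These livers took part in the choice of the genes, so no test is given.

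The remnants allow the diet differences to be tested on arrays that did not choose the genes, although the animals are the same. At 1 h every remnant lay within -0.65 to 0.64 of its own control for both genes. The 1 h tests are therefore not independent of the choice. At 1 h Stac3 had 3.50, 5.53, 5.13 and 3.91 in EtOH remnants, against 8.04, 6.17, 9.13 and 7.28 in HF remnants and 7.80, 8.55 and 8.75 in CHO remnants. The highest EtOH remnant lay 0.65 below the lowest HF remnant and 2.27 below the lowest CHO remnant. Groups of 3 or 4 arrays can separate by chance. The share of all genes that separate the diets was not counted at any time. In the limma fit Stac3 was lower by -3.79 ± 0.49 against CHO (SE, adjusted p = 3.74e-05, 13.9-fold lower) and by -3.11 ± 0.44 against HF (adjusted p = 0.000104, 8.61-fold). Of all genes, 1.12% were called lower against CHO and 0.993% against HF.

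Car3 at 1 h had 9.36, 10.01, 9.46 and 8.50 in EtOH remnants, against 11.24, 11.62, 12.06 and 12.11 in HF remnants and 11.97, 11.46 and 11.81 in CHO remnants. The groups did not overlap. Car3 was lower by -2.39 ± 0.40 against CHO (SE, limma adjusted p = 0.000825) and by -2.41 ± 0.35 against HF (adjusted p = 0.000162). Both genes thus kept at 1 h the order of the livers before surgery.

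At 6 h the 2 genes parted. Stac3 had 4.40, 4.02, 3.81 and 4.01 in EtOH remnants, against 4.11, 4.28 and 5.03 in HF remnants and 4.73, 5.07 and 4.60 in CHO remnants. All 10 values lay below the median of the 14506 genes on their arrays. Scan day was a block in the fit, and CHO replicate 4 was the only array of its day. The fitted CHO level at 6 h therefore rests on CHO replicates 2 and 3. The EtOH minus CHO difference was -0.84 ± 0.53 (95% interval -1.93 to 0.24, limma adjusted p = 0.617), and the EtOH minus HF difference was -0.39 ± 0.47 (-1.36 to 0.57, adjusted p = 0.798). The EtOH and CHO values did not overlap, with a gap of 0.20, but the fit did not call the difference. So few arrays can separate by chance, and the gap is not read as a diet difference. HF replicate 2, marked as an outlier and left out, had 5.85.

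Car3 at 6 h had 8.52, 6.93, 7.45 and 6.83 in EtOH remnants, against 11.14, 11.50 and 12.14 in HF remnants and 11.12, 11.36 and 11.31 in CHO remnants. Every EtOH remnant lay at least 2.60 below every remnant of the other diets. As for Stac3, the fitted CHO level rests on CHO replicates 2 and 3. The difference was -3.81 ± 0.42 against CHO (SE, limma adjusted p = 1.61e-05, 14-fold lower), the lowest of all genes, and -4.16 ± 0.38 against HF (adjusted p = 4.34e-07, 17.9-fold lower), the second lowest. Of all genes, 0.558% were called lower against CHO and 1.9% against HF at this time.

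At 24 h Stac3 was low on every diet, with 3.72, 3.90 and 3.61 in EtOH remnants, against 4.09, 3.77, 3.74 and 3.57 in HF remnants and 4.24, 4.16, 3.98 and 4.32 in CHO remnants. The differences of -0.44 ± 0.48 against CHO (95% interval -1.44 to 0.55, limma adjusted p = 0.651) and -0.06 ± 0.48 against HF (-1.05 to 0.93, adjusted p = 0.976) missed the threshold. EtOH and CHO remnants did not overlap, with a gap of 0.079 that so few arrays can show by chance, and EtOH and HF remnants did overlap. Car3 had 9.47, 8.19 and 8.74 in EtOH remnants, against 10.53, 10.54, 10.80 and 11.53 in HF remnants and 11.19, 11.19, 11.05 and 10.82 in CHO remnants. It was lower by -2.19 ± 0.39 against CHO (SE, adjusted p = 0.000608, 4.56-fold) and by -1.98 ± 0.39 against HF (adjusted p = 0.00272, 3.93-fold), with no overlap. Of all genes, 5.16% were called lower against CHO and 2.66% against HF.

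**Figure D3:**
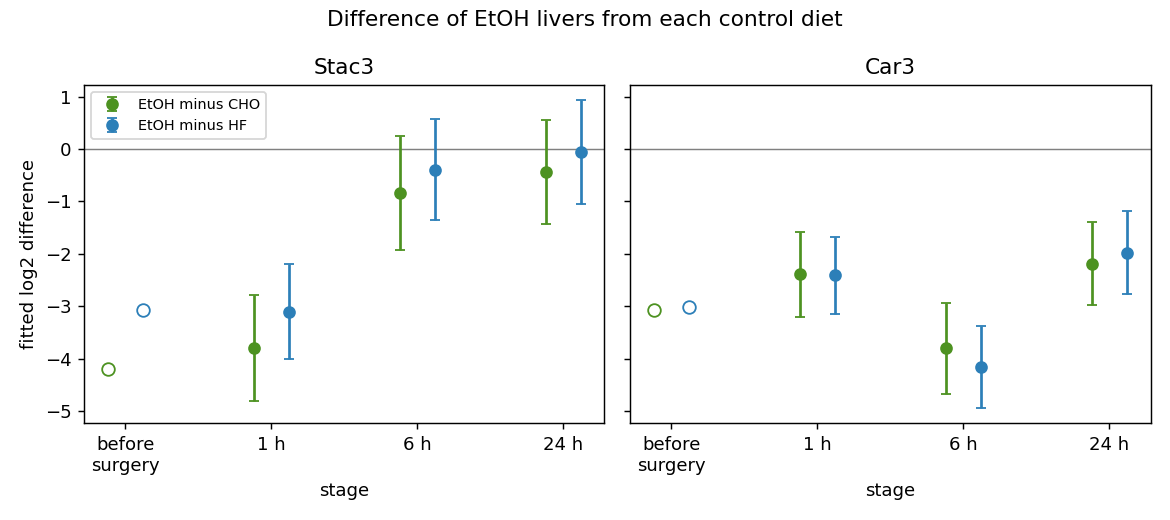
Fitted log2 difference of EtOH from CHO (green) and from HF (blue) by stage, for Stac3 (left) and Car3 (right). Filled points are remnants with 95% intervals, and open points are the livers before surgery, which chose the genes and carry no interval. The Stac3 intervals include 0 at 6 and 24 h, and all Car3 intervals lie below 0.

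HF and CHO remnants were not called different for either gene at any of the 3 times. For Stac3 the HF minus CHO differences were -0.69 (95% interval -1.65 to 0.28), -0.45 (-1.60 to 0.70) and -0.38 (-1.27 to 0.50) at 1, 6 and 24 h. For Car3 they were 0.02 (-0.76 to 0.79), 0.35 (-0.57 to 1.28) and -0.21 (-0.93 to 0.50). The limma adjusted p was 0.92 or higher in all 6. At 6 h the fitted CHO level again rests on CHO replicates 2 and 3. Of all genes, 0.0483%, 0.0345% and 0.00689% were called in either direction at these times.

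The change from control to remnant within an animal, both arrays scanned on the same day, follows each gene through the first day of regrowth. The control arrays are those that chose the genes, so these changes are given for every animal with no test. Stac3 moved by -0.34, -0.58, -0.12 and 0.32 in EtOH rats, by 0.29, 0.11 and 0.09 in HF rats and by -0.32, -0.65 and -0.50 in CHO rats. Car3 moved by 0.64, 0.48, -0.48 and 0.38 in EtOH rats, with the 6 HF and CHO changes between -0.39 and 0.12. At 1 h every change of either gene lay between -0.65 and 0.64.

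At 6 h the Stac3 changes were -1.50, 0.11, -0.11 and -0.02 in EtOH rats, -3.88 and -3.42 in HF rats and -3.70, -4.03 and -4.20 in CHO rats. The fitted changes were -0.38 ± 0.18 in EtOH, -3.65 ± 0.26 in HF and -3.98 ± 0.21 in CHO rats (SE). Every HF and CHO rat was far below its own control level, and by more than any EtOH rat. Stac3 was chosen for its low level in EtOH livers, whose median before surgery was 4.30. The 6 h remnants compared lay between 3.81 and 5.07, so a fall of that size had no room to show in EtOH rats. EtOH replicate 1, the liver that stood at 5.91 before surgery, was at 4.40 in its remnant, and the fitted change without it was -0.0075. With the arrays marked as outliers the HF change was -3.19.

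At 24 h the Stac3 changes were -0.85, -0.11 and -1.06 in EtOH rats, -4.08, -3.88 and -3.91 in HF rats and -4.07 and -4.06 in CHO rats. The fitted changes were -0.67 ± 0.21 in EtOH, -3.96 ± 0.21 in HF and -4.06 ± 0.26 in CHO rats (SE). All 8 animals were below their own control level, the 5 HF and CHO rats by more than any EtOH rat. The low starting level again left EtOH rats little room for a fall of that size.

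The Car3 changes at 6 h were -1.17, -2.01, -0.95 and -0.78 in EtOH rats, -1.10 and -0.60 in HF rats and -0.90, -1.02 and -0.58 in CHO rats. The fitted changes were -1.23 ± 0.19 in EtOH, -0.85 ± 0.27 in HF and -0.83 ± 0.22 in CHO rats (SE). All 9 animals were lower at 6 h than before surgery, in HF and CHO rats by less than Stac3 was, and in EtOH rats by a larger fitted change than that of Stac3. Stac3 started low in EtOH rats and had little room to fall.

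At 24 h the Car3 changes were 0.04, -1.18 and -0.77 in EtOH rats, -1.21, -1.16 and -0.33 in HF rats and -0.94 and -0.93 in CHO rats. The fitted changes were -0.63 ± 0.22 in EtOH, -0.90 ± 0.22 in HF and -0.94 ± 0.27 in CHO rats (SE). All but EtOH replicate 1 were below their own control level, and the 3 diets overlapped. Without that animal the fitted EtOH change was -0.97, and without EtOH replicate 2 it was -0.36. The HF minus CHO difference of the fitted change was 0.65, 0.33 and 0.11 for Stac3 and 0.03, -0.01 and 0.04 for Car3 at 1, 6 and 24 h.

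**Figure D4:**
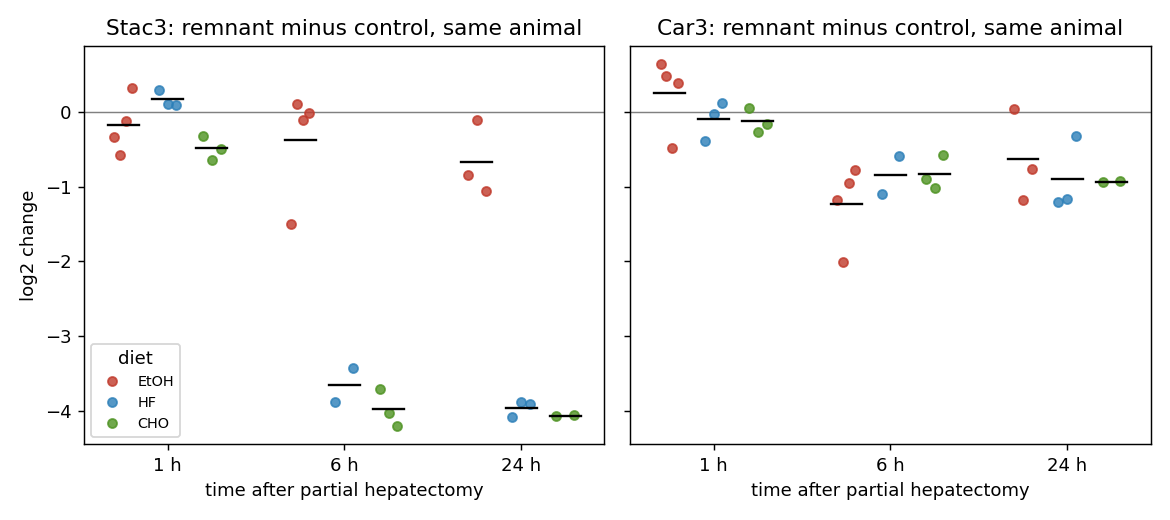
Log2 change from control to remnant in the same animal for Stac3 (left) and Car3 (right), by time after surgery and, left to right, EtOH, HF and CHO. Points are animals and lines are means. At 6 and 24 h the Stac3 changes lie between -1.50 and 0.11 in EtOH rats and between -4.20 and -3.42 in HF and CHO rats. EtOH livers started low in Stac3, which limits how far they could fall.

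With 12 group means (3 diets by 4 stages), the profile of Stac3 was most like that of Map7, a microtubule-associated protein, with r = 0.952. Next came Dbp (0.945), Prex2, a Rac exchange factor (0.937), Nr1d2, a clock repressor (0.936), and Hsd17b2 (0.935). Each had its 4 highest means before surgery and at 1 h in HF and CHO livers, although they differ in depth: Stac3 group means span from 3.74 to 8.69 and those of Map7 from 6.00 to 7.28. The most opposite profiles were those of Ncald, a calcium sensor (-0.961), Tubb2a, a tubulin (-0.955), and Lgalsl (-0.951).

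Car3 was most like Acnat2, an acyltransferase (0.943), Dhrs7l1 (0.938), Ust5r (0.923), Ccnd1, the G1 cyclin D1 (0.911), and Car5b, a mitochondrial carbonic anhydrase (0.890). Acnat2, like Car3, had its lowest mean in EtOH remnants at 6 h, 5.92, against 9.63 in HF and 8.35 in CHO remnants. Slc6a6, the taurine transporter, had the most opposite profile (-0.935), then Lgmn, a lysosomal protease (-0.928), and Plau, urokinase (-0.913). Stac3 and Car3 themselves had r = 0.652, and Car3 was the 416th gene most like Stac3 among 2806 genes whose group means spanned at least 1. Stac3 was the 92nd gene most like Car3 among them. The means share animals and arrays, and these correlations are a description.

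**Figure D5:**
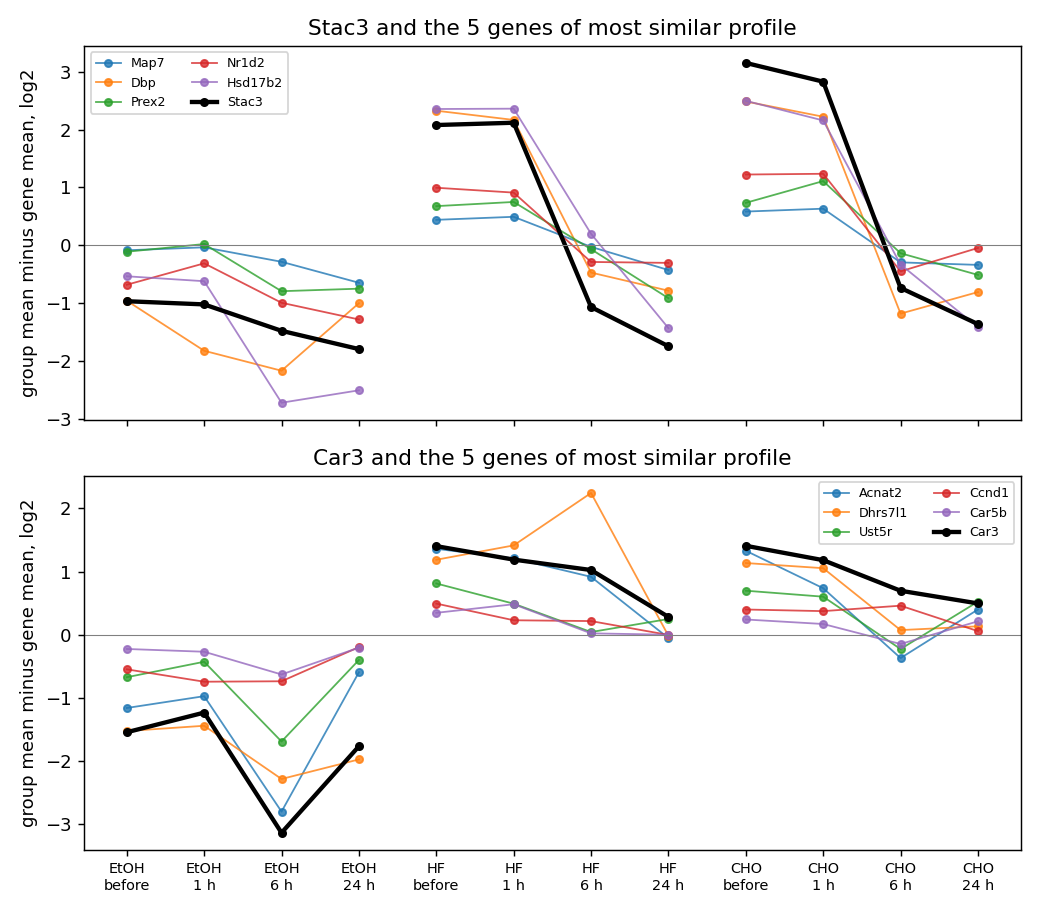
Group means of Stac3 (top) and Car3 (bottom) with the 5 genes of highest Pearson r, each minus its own mean over the 12 groups, in log2 units. Groups run EtOH, HF, CHO from left to right, each from before surgery to 24 h. The Stac3 set steps down between 1 and 6 h in HF and CHO livers, and the Car3 set is low throughout EtOH livers.

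Car3 belongs to the carbonic anhydrases, which interconvert carbon dioxide and bicarbonate, and 14 others were measured. Before surgery 3 of the 14 were called lower in EtOH than in CHO livers and 0 higher, where 5.46% of all genes were called lower and 6.35% higher: Car1, the erythrocyte form (-1.11), Car5b (-0.44) and Car14, a membrane form (-0.33). Against HF, Car1 (-1.0), Car5b (-0.58) and Car8, a form without catalytic activity (-0.64), were called lower and Car5a, the liver mitochondrial form, higher (0.52), where all genes stood at 6.05% lower and 7.41% higher. The family's median difference was 0.04 against CHO and 0.01 against HF, where all genes stood at 0.01 in each. At 1 h Car1 was called lower in EtOH remnants against CHO (-0.96, adjusted p = 0.00853) and against HF (-0.97, adjusted p = 0.00257), and Car5b against HF (-0.78), with 1.12% and 0.993% of all genes lower against CHO and HF. At 6 h Car5b and Car14 were called lower against HF (-0.64 each, with 1.9% of all genes). Against CHO 0 were, with 0.558% of all genes (3 with an unadjusted p under 0.05). At 24 h 0 of 14 were called in limma, with 4 against CHO and 0 against HF at an unadjusted p under 0.05. Of all genes, 5.16% and 2.66% were then called lower against CHO and HF, and 1.06% and 0.524% higher.

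The largest of these differences was far below those of Car3, and Car1 was at 3.64 in EtOH, 4.64 in HF and 4.76 in CHO livers, near or below the array medians. Car1 and Car2 flank Car3 in the rat genome and Car13 lies beyond Car1. Car2 averaged 5.93 in EtOH, 6.12 in HF and 6.09 in CHO livers, Car13 lay at 3.46, 3.38 and 3.35, and neither was called between diets at any stage. Car5a, which took no part in the choice of the genes, fell on every diet at 6 and 24 h (-0.93 to -1.38), where 17.8%, 9.3% and 14.3% of all genes were called lower in EtOH, HF and CHO rats at 6 h and 8.68%, 10.8% and 6.92% at 24 h. Car14 fell at 6 h by -1.79 in EtOH, -1.09 in HF and -2.03 in CHO rats. The family did not move as 1 at that time. In EtOH rats 4 of the 14 were called lower and 2 higher, Car4 (0.42) and Car8 (0.46), where 34.3% of all genes were called in either direction. In HF and in CHO rats 3 were called lower and 0 higher. Car1 changed by -0.96 in HF and -1.37 in CHO rats, and by 0.21 in EtOH rats, where it was not called.

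Most partners of STAC3 in muscle had low signal here. Of 14 measured genes of muscle excitation-contraction coupling, 12 lay below the median of the 14506 genes. Ryr1, the calcium release channel, averaged 4.90 in EtOH, 4.81 in HF and 4.80 in CHO livers. That is above the medians of 4.54 to 4.77 over all probe sets. Before surgery Asph was called higher against CHO (0.25), with 6.35% of all genes, and Cacna2d1 lower against HF (-0.25), with 6.05% of all genes. In remnants 0 of 14 were called between EtOH and either diet, and 0 to 4 had an unadjusted limma p under 0.05 per comparison. Stac2, the related adaptor, averaged 4.05 in EtOH, 4.06 in HF and 4.04 in CHO livers and was not called between diets. Of the 12 skeletal muscle markers, 0 were called before surgery in limma against either diet, and 0 had an unadjusted p under 0.05. None of the 5 measured neighbours of Stac3 on the chromosome (Inhbe, Inhbc, R3hdm2, Shmt2 and Nxph4) was called between EtOH and either diet at any stage, with 0 to 2 at an unadjusted p under 0.05.

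Genes of growth hormone signalling were examined because Car3 depends on that hormone in rat liver. Of 13, Stat5a and Stat5b, the transcription factors that carry the signal, were higher in EtOH livers before surgery (0.51 and 0.57 against CHO, 0.43 and 0.59 against HF), and 0 were lower. Higher calls made up 6.35% of all genes against CHO and 7.41% against HF before surgery, and 1.08% and 1.17% at 1 h. At 1 h Onecut1, a liver transcription factor, was higher against CHO (1.24), and Stat5a and Stat5b were higher against HF (0.56 and 0.51). At 6 h Igfals, which carries IGF1 in blood, was lower against HF (-0.68, with 1.9% of all genes lower), and at 24 h 0 of 13 were called in limma (3 against CHO and 1 against HF at an unadjusted p under 0.05). Ghr, the receptor, averaged 10.57 in EtOH, 10.44 in HF and 10.67 in CHO livers, Igf1 averaged 12.10, 12.08 and 12.17, and neither was called.

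Among 7 measured male-predominant rat liver genes, 2 were called lower against CHO and 4 against HF before surgery, with 5.46% and 6.05% of all genes, and 0 higher. In remnants 0, 1 and 1 were called lower against CHO and 1, 2 and 1 against HF at 1, 6 and 24 h, and 0 higher. Lower calls among all genes made up 1.12%, 0.558% and 5.16% against CHO at these times. Against HF they made up 0.993%, 1.9% and 2.66%. Cyp2c11, the male steroid hydroxylase, was lower in EtOH livers by -1.10 and -1.04 before surgery, and in EtOH remnants by -1.49 and -1.64 at 6 h and by -1.77 and -1.40 at 24 h (against CHO and HF, limma adjusted p 0.00153 or lower in each). At 1 h its differences of -0.76 and -0.67 missed the threshold (adjusted p = 0.0877 and 0.0931). Mup5, a urinary protein, was lower by -1.55 and -1.19 before surgery, and in remnants was called against HF at 1 h (-2.15) and 6 h (-1.82) only. Among 6 female-predominant genes, 3 were called higher against CHO and 4 against HF before surgery, with 6.35% and 7.41% of all genes, and 0 lower. In remnants 2, 2 and 1 were called higher against each diet at 1, 6 and 24 h, and 0 lower. Higher calls among all genes made up 1.08%, 0.614% and 1.06% against CHO at these times. Against HF they made up 1.17%, 1.1% and 0.524%. Prlr, the prolactin receptor, was higher by 1.98 and 2.09 before surgery, by 2.33 and 2.56 at 1 h and by 1.99 and 2.00 at 6 h, while its 24 h differences of 1.12 and 1.11 missed the threshold (limma adjusted p = 0.103 and 0.164). Sult2a2, a steroid sulfotransferase, was higher in all 8 comparisons of EtOH with another diet, by 0.44 to 1.16. Cyp2c12, the female steroid hydroxylase, averaged 10.48 in EtOH, 10.77 in HF and 10.18 in CHO livers and was not called. The Cyp2c, Mup and Sult2a genes have near-identical copies, so their probe sets may read more than 1 gene.

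Markers of other liver cells also moved with the diets, and their part in the Stac3 and Car3 values was not tested. The 9 macrophage markers averaged 7.98 in EtOH livers (7.40 to 8.29), 7.44 in HF (6.98 to 7.82) and 7.43 in CHO (7.14 to 7.76) before surgery. Of them 5 were called higher against CHO and 7 against HF, among them Marco, a scavenger receptor (against HF by 1.15). In remnants 0 to 2 of the 9 were called higher per comparison, while 9 against CHO and 7 against HF had an unadjusted limma p under 0.05 at 6 h, 7 and 4 at 24 h, and 3 and 1 at 1 h. Their median difference against CHO was 0.50 before surgery and 0.83 at 6 h. Across all genes, higher calls in EtOH made up 6.35% against CHO and 7.41% against HF before surgery, 1.08% and 1.17% at 1 h, 0.614% and 1.1% at 6 h, and 1.06% and 0.524% at 24 h. The 11 markers of hepatocytes around the central vein averaged 8.11 (7.93 to 8.29), 8.37 (8.27 to 8.51) and 8.35 (8.29 to 8.47), and 6 of them were called lower against each diet, with 5.46% and 6.05% of all genes, among them Slc1a2, a glutamate transporter (-1.26 and -1.24). In remnants 0 to 2 of the 11 were called lower per comparison, and 1 to 6 had an unadjusted p under 0.05. Lower calls among all genes in remnants made up 0.558% to 5.16% against CHO and 0.993% to 2.66% against HF. The 4 erythroid markers averaged 5.90 (5.38 to 7.23), 6.18 (5.61 to 7.46) and 6.03 (5.51 to 6.43). At 24 h 1 of them, Hbb, was called higher in EtOH remnants against both diets, as was 1 adipocyte marker, Fabp4 (1.46 against CHO and 1.74 against HF). In bulk liver, fewer cells of a type and less RNA per cell cannot be told apart.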

How the data were processed

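Liver RNA was hybridised to Affymetrix Rat Gene 1.0 ST arrays. All deposited values are log2 intensities, made by the authors with RMA in Affymetrix Expression Console, per the submitters' processing notes; per the file headers, a mixed-effects ANOVA then corrected for batch. The corrected table equals the uncorrected one plus a constant per probe set and scan day (8 days), to within 9.83e-05. The annotation names 1 gene for 15310 of the 29214 probe sets, several for 323 and none for 13581, which leaves 14506 genes (highest-mean probe set each, no filter on dim genes). The authors' table without outliers holds 63 columns, of which 2 CHO control columns matched the same animals' remnants; those 2 controls were left out.

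Levels were fitted with limma 3.58.1 (R 4.3.3) on diet, or diet and time, with scan day as a block. CHO replicate 4 of the 6 h cohort was the only animal of its scan day. The block takes up its arrays, so they did not inform the fitted diet differences. The same holds before surgery for EtOH replicate 3 of the 24 h cohort, the only control array kept from its day. Changes were fitted on 27 within-animal differences, so the animal is the block, which its label gives. For Stac3 and Car3 no p is given where control arrays enter, as their values chose the genes; tests of the changes and of HF against CHO before surgery had been planned. P-values are two-sided, adjusted by Benjamini-Hochberg over all genes, with a threshold of 0.05. The arrays of 1 animal correlated by a median of 0.177 after removal of group means. Correlations were computed in scipy 1.17.1. The number of arrays limits the precision.

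The genes, the lists of related genes and the tests were chosen with earlier results of these data known. Named genes are both members, the 5 lowest before surgery in each comparison, the 5 most and 3 least alike in profile, and up to 4 of each list by remnant p plus those a count rests on. The 12 lists are those of the carbonic anhydrases, STAC family, muscle coupling, growth hormone, male and female genes and 6 cell types.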

Additional observations from a re-analysis of the deposited data

Results flagged for a closer look

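Stac3 in EtOH replicate 1 of the 6 h cohort before surgery stood apart from its group, at 5.9083 against 3.91 to 4.03 in the other 3 livers. Its change to the 6 h remnant was likewise apart, at -1.5039 against -0.11 to 0.11 in the other 3 animals. In that animal Car3 was 9.69 before surgery, the highest of the 4, and changed by -1.17. A single value far from a small group was looked for in 20 groups, and chance gives about 1 in 20.

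At 1 h after surgery the Stac3 change was above 0 in all 3 HF rats and below 0 in all 3 CHO rats, a difference of 0.6522. The difference was not tested, because it uses the control arrays that chose the genes. Including the arrays marked as outliers, HF replicate 3 changed by -0.16.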

How the results depend on the processing

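Of 702 values of Stac3 and Car3 under the alternatives, 697 stayed on the same side of the threshold or, where no test was given, moved by less than 1 SD between replicates. Some runs among these could not move a value. Batch correction shifts each scan day by a constant, which the scan-day block removes with or without it. Leaving out an array alone on its scan day likewise moved no fitted level difference. By the rule used 0 reversed. A change of sign counted as a reversal only for a called difference or, where no test was given, one above 1 SD. Some smaller differences did change sign, such as Stac3 in HF against CHO remnants at 6 h (-0.71 to 0.06). The called EtOH differences in remnants held in every alternative run, with a replicate block among them (Stac3 at 1 h -4.20 against CHO and -3.14 against HF). That block changed no call of either gene, and moved the count of called genes by over 1.5 times in 3 comparisons (352 for EtOH against CHO at 6 h and 50 for HF against CHO before surgery). Replicate numbers did not pair the diets: arrays of the same number correlated by a median of 0.00564, against 0.0138 for other numbers. Before surgery, Car3 in EtOH against HF was -3.78 within the 6 h cohort, and Stac3 in HF against CHO was -2.05 within the 1 h cohort. With all arrays the Stac3 change was -3.19 in HF rats at 6 h and -4.51 in CHO rats at 24 h. With 1 animal left out, the change ran from -0.54 to -0.0075 for Stac3 in EtOH rats at 6 h and from -0.95 to -0.48 at 24 h. For Car3 it ran from -1.10 to -0.60 in HF rats at 6 h and from -0.97 to -0.36 in EtOH rats at 24 h. With the animal left out of the fit (no replicate block), the Stac3 change in EtOH rats at 24 h was -0.67. That value could not differ from the paired one, because both arrays of each animal were kept and shared a scan day. The cause of the shifts under other settings was not tested.

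Counts of called genes stayed within 1.5 times in 262 of 351 cases. They ran from 116 to 539 against CHO (319 as reported) and 175 to 472 against HF (313) in remnants at 1 h, 63 to 352 (170) and 159 to 571 (434) at 6 h, and 435 to 1652 (902) and, as a share of genes, 1.63% to 3.94% (3.18%) at 24 h. Before surgery they ran from 135 to 2555 (1713) and 225 to 2360 (1953), and 0 to 51 (24) for HF against CHO. For the changes after surgery they ran, as shares of all genes, from 1.54% to 5.04% in EtOH, 0.682% to 3.28% in HF and 0.813% to 4.05% in CHO rats at 1 h, from 29.3% to 38.4%, 8.37% to 28.2% and 22.7% to 31.7% at 6 h, and from 7.6% to 17.9%, 19.6% to 26.4% and 9.44% to 24.3% at 24 h. Among counts over the gene lists, 27 moved by more with all arrays and 11 with quantile normalization. Another probe set could not be tried, since neither gene has one. No detection calls were used, so Stac3 near the array median has no firm lower bound.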
